A study of Homo sapiens with 6 samples.

Results

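The subject is a set of 9 human genes that import cystine and make, recycle or break down glutathione: SLC7A11, SLC3A2, GCLC, GCLM, GSS, GSR, GGT1, CHAC1 and CHAC2. They were found by gene symbol in a table of 61806 genes, and each matched 1 row. The measurements are RNA-seq of HCT116, an established human colorectal carcinoma line. There were 3 libraries of cells labelled wildtype given a non-targeting short interfering RNA (siRNA), called si-NC, and 3 of cells labelled STRIP2 knockdown (si-STRIP2). STRIP2 encodes a subunit of STRIPAK, a complex built around a phosphatase and kinases, and the title of the series concerns ferroptosis, cell death through iron-dependent lipid peroxidation. Neither the sequence nor the number of siRNA duplexes, nor the time after transfection, is stated in the labels. All 6 libraries come from 1 cell line. Nothing says whether they came from separate cultures, so p-values measure the spread between these libraries.

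Glutathione is a tripeptide of glutamate, cysteine and glycine and the main small thiol of most cells. Cysteine is usually the scarce part. It enters many cultured cells as its oxidised dimer, cystine, through system xc-, in which SLC7A11 is the transporting light chain and SLC3A2 the heavy chain that carries it to the membrane. Glutamate-cysteine ligase, made of the catalytic subunit GCLC and the modifier subunit GCLM, joins glutamate to cysteine. GSS adds glycine, GSR reduces oxidised glutathione with NADPH, GGT1 cleaves glutathione outside the cell, and CHAC1 and CHAC2 cleave it in the cytosol. GPX4 uses glutathione to reduce lipid peroxides, which is how cystine import bears on ferroptosis.

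The largest change among the 9 genes was in cystine import: SLC7A11 fell to 41.7% of its control level. GCLC fell to 78.3%, and SLC3A2, CHAC1 and CHAC2 fell to between 84.5% and 90.6%. GSS and GSR rose, to 114% and 118% of control, and GCLM and GGT1 did not pass the test. In all, 7 of the 9 genes were called at an edgeR adjusted p under 0.05, where 54.8% of the 15687 genes tested were called. Of these, 5 were lower and 2 higher, against 27.0% lower and 27.8% higher over all genes tested. The 9 genes were chosen with earlier results of these data known, so these counts are no independent evidence. Only SLC7A11 was called with a change of at least 1.5-fold, which 14.5% of tested genes reached. For 6 of the 9 genes no si-STRIP2 library had an FPKM within the si-NC range or the reverse, against 58.6% of tested genes. FPKM is the count per kilobase of exon scaled to the library total. The median log2 fold change of the 9 genes was -0.15, and that of all tested genes was 0.014.

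**Figure D1:**
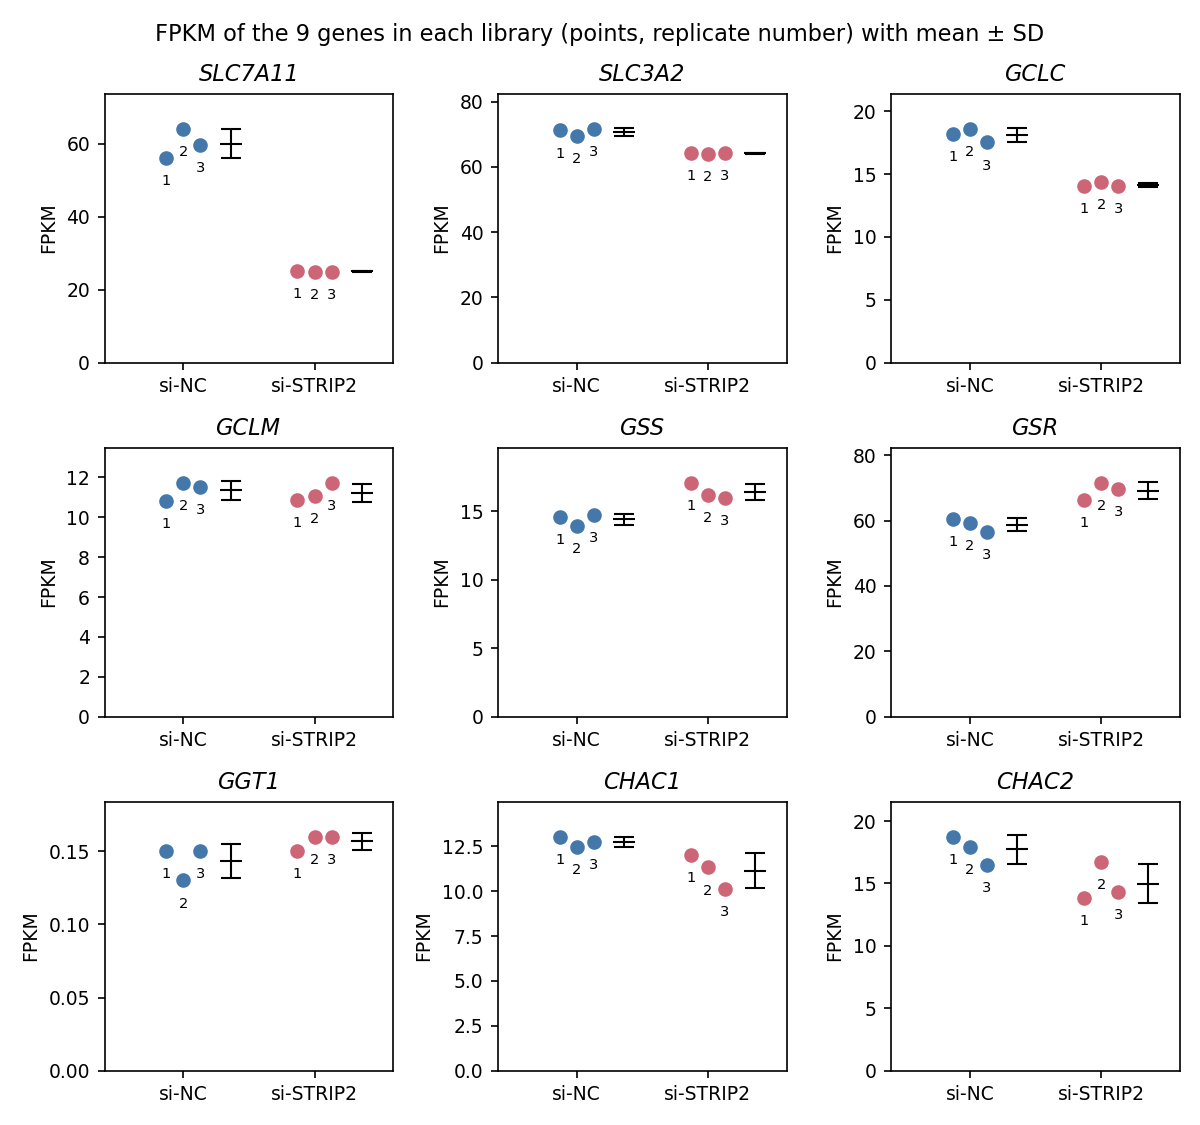
FPKM of the 9 genes in each library (vertical axes from 0, 1 panel a gene), with replicate numbers beneath the points and mean ± SD to the right of each group (n = 3). SLC7A11 lies at 56.12 to 64.09 in si-NC and at 24.92 to 25.18 in si-STRIP2, while the points of GCLM, GGT1 and CHAC2 overlap between the groups.

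Total counts ranged from 17184963 to 21721218 per library. STRIP2, the targeted gene, was at 3.19, 3.77 and 3.81 FPKM in si-NC and at 2.71, 2.53 and 2.58 in si-STRIP2. That left 72.6% of control (log2 fold change -0.46, edgeR adjusted p = 1.62e-05). Among all tested genes, 2084 had a lower log2 fold change than STRIP2. Whether changes in other genes follow from less STRIP2 was not tested. In the si-NC libraries 4.88% to 8.88% of counts were mitochondrial, and in si-STRIP2 5.73% to 6.30%; the part of this in the results was not tested. The FPKM sum over 6 epithelial markers (EPCAM, KRT8, KRT18, KRT19, CDH1, CDX2) ran from 690.6 to 720.7 among controls and from 667.4 to 691.0 after knockdown. The sum hides markers that moved apart. CDH1 fell to 66.1% of control (log2 fold change -0.60, edgeR adjusted p = 1.57e-14), and EPCAM (92.7%) and KRT18 (88.3%) were also lower. KRT19 (117%) and CDX2 (130.8%) were higher, and KRT8 was not called. Their part in the results was not tested. The 6 markers of leukocytes, fibroblasts and endothelium summed to between 2.09 and 2.68 in every library, of which COL1A1 gave at least 1.89; PTPRC, PECAM1 and CDH5 were at 0.02 FPKM or less. In bulk RNA, fewer cells that express a gene and less RNA per cell cannot be told apart.

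Promoter sequences were examined because NRF2 (gene NFE2L2) and the ATF4 and CHOP factors are known to act on several of these genes. NRF2 binds antioxidant response elements, and ATF4 and CHOP bind composite elements. RefSeq promoters (GRCh38.p14, 250 bases before to 50 after a gene's start) were matched by symbol for 6 of the 9 genes, with 10 start sites; SLC7A11, GSS and GSR had no entry. Both strands were searched for the antioxidant response element core TGACNNNGC, held by 13.3% of the 35116 promoters in the table. The composite element core TGATGNAA was held by 3.62%. The first occurred at GCLM, at 1 of 3 starts of SLC3A2 and at 1 of 2 starts of GGT1. The second occurred at CHAC1 and at that same start of SLC3A2. The search was widened from the genes with a 1.5-fold change to all 9 after their values were seen. The matched letters are in capitals below, 5′ to 3′ on the strand of the gene, so a match on the other strand reads as the reverse complement.
GCLM (chr1:93909440-93909480, minus strand, antioxidant response element core on the other strand, bases -34 to -26 from the start): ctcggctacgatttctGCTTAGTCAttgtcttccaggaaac
SLC3A2 (chr11:62881646-62881686, plus strand, antioxidant response element core, bases -37 to -29): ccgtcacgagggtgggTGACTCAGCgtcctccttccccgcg
SLC3A2 (chr11:62881720-62881748, plus strand, composite element core on the other strand, bases 38 to 45): taatgtgcaggactccTTACATCAgctcc
CHAC1 (chr15:40953246-40953285, plus strand, composite element core on the other strand, bases -209 to -202): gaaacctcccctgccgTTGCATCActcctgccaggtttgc
GGT1 (chr22:24603148-24603188, plus strand, antioxidant response element core on the other strand, bases -29 to -21): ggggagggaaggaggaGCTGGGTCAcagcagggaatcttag
A match describes letters in this window and does not show binding. Of these 4 genes, GCLM, SLC3A2, CHAC1 and GGT1 had log2 fold changes of -0.019, -0.15, -0.20 and 0.11, of which those of SLC3A2 and CHAC1 passed the test.

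SLC7A11 (ENSG00000151012, chromosome 4, 138164097 to 138242349, minus strand) had 56.12, 64.09 and 59.59 FPKM in si-NC. In si-STRIP2 it had 25.18, 24.92 and 24.93 FPKM. The groups lay far apart. The 3 knockdown libraries were closer to one another than the controls were, as they also were over all tested genes. The counts behind these values were 9877 to 11757 in si-NC and 4142 to 4561 in si-STRIP2. The fall was 2.40-fold (log2 fold change -1.26, 95% interval -1.35 to -1.17, edgeR adjusted p = 2.48e-22). Of 863 tested genes with at least its mean FPKM over the 6 libraries, only 2 had a lower log2 fold change. These were AREG, an EGF receptor ligand (-1.54), and MAP1LC3B, an autophagosome protein (-1.44), both named after their values were seen. The antisense gene SLC7A11-AS1 shares 865 exonic bases with SLC7A11 in GENCODE 29. It had 9 to 24 counts per library, 0.230% as many as SLC7A11.

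SLC3A2 (ENSG00000168003, chromosome 11, 62856004 to 62888880, plus strand), the heavy chain, fell to 90.6% of control. It had 71.17, 69.47 and 71.74 FPKM in si-NC and 64.26, 63.96 and 64.23 in si-STRIP2. Every knockdown library lay below every control, although the difference was small (log2 fold change -0.15, 95% interval -0.23 to -0.064, edgeR adjusted p = 0.00253). The FPKM ratio of SLC7A11 to SLC3A2 was 0.789, 0.923 and 0.831 in the control libraries. In the knockdown libraries it was 0.392, 0.390 and 0.388. By FPKM, the light chain transcript was therefore slightly below the heavy chain in si-NC and well below it in si-STRIP2. The order in si-NC depends on the exonic sizes used, 9645 bases for SLC7A11 and 6392 for SLC3A2. By raw counts SLC7A11 was above SLC3A2 in every si-NC library (11757, 10700 and 9877 against 9882, 7687 and 7880). In si-STRIP2 it was below by counts as well (4561, 4202 and 4142 against 7714, 7148 and 7071). The difference in mean log2 ratio was -1.12, with a pooled SD of 0.082 (exact permutation test, 2-sided, p = 0.1, adjusted p = 0.15 over 3 ratios). With 3 against 3 the smallest p is 0.1.

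SLC3A2 also serves other light chains, each of which carries other amino acids. Of 5 such light chains, 3 passed the filter on low counts, with 1 called higher and 2 lower. Over all tested genes 27.8% were called higher and 27.0% lower. SLC7A8, the light chain LAT2, fell from 1.42 ± 0.166 to 0.630 ± 0.0755 FPKM (SD, n = 3; log2 fold change -1.19, edgeR adjusted p = 5.55e-09). On the log2(FPKM + 1) scale, which understates changes of low genes, its difference was -0.57. SLC7A5, LAT1, was the most abundant at 164.9 FPKM in si-NC and 149.7 in si-STRIP2 (log2 fold change -0.14, edgeR adjusted p = 0.00477). SLC7A6 was higher (0.19, edgeR adjusted p = 0.0380). SLC7A5 and SLC7A6 were named after their values were seen. Of 8 further genes of cystine and cysteine transport, 5 were tested, with 1 higher and 2 lower. That is 60% called, beside 54.8% over all tested genes. SLC1A1, a glutamate transporter that also takes up cysteine, went from 5.03 ± 0.189 to 3.80 ± 0.404 FPKM (log2 fold change -0.41, edgeR adjusted p = 0.000109). SPATA6L, which overlaps SLC1A1 on the opposite strand, held 13.1% as many counts and shares no exonic base with it in GENCODE 29.

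Of the subunits of glutamate-cysteine ligase, the catalytic one fell and the modifier did not pass the test. GCLC (ENSG00000001084, chromosome 6, 53497341 to 53616970, minus strand), which holds the active site, had 18.16, 18.62 and 17.52 FPKM in si-NC. It had 14.06, 14.35 and 14.09 in si-STRIP2, all below the lowest control. The fall was 1.28-fold (log2 fold change -0.36, 95% interval -0.44 to -0.27, edgeR adjusted p = 3.79e-09). GCLM (ENSG00000023909, chromosome 1, 93885199 to 93909456, minus strand), which makes the enzyme more efficient, had 10.80, 11.74 and 11.51 FPKM in si-NC. Its si-STRIP2 values of 10.85, 11.09 and 11.70 lay within that range. The log2 fold change of GCLM was -0.019, with a 95% interval of -0.12 to 0.081 (edgeR adjusted p = 0.766), an interval that does not reach the fall of GCLC.

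The FPKM ratio of GCLM to GCLC was 0.595, 0.631 and 0.657 in si-NC and 0.772, 0.773 and 0.830 in si-STRIP2. Every knockdown library thus had more modifier transcript per catalytic transcript than every control. The difference in mean log2 ratio was 0.34, with a pooled SD of 0.067 (exact permutation test, 2-sided, p = 0.1, the smallest possible, adjusted p = 0.15 over 3 ratios).

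**Figure D2:**
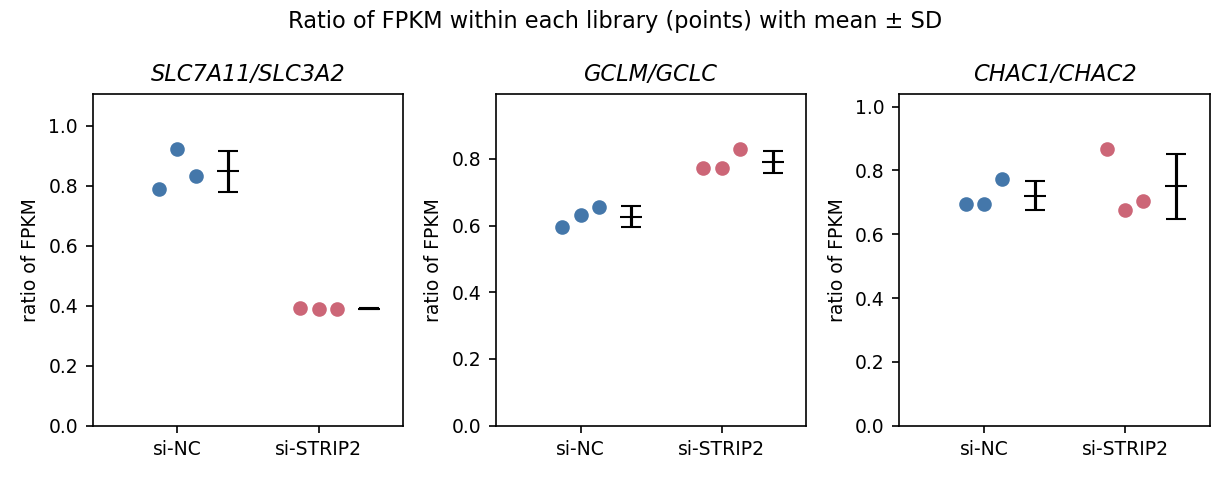
Ratio of FPKM within each library (points; vertical axes from 0) for SLC7A11 over SLC3A2, GCLM over GCLC and CHAC1 over CHAC2, with mean ± SD to the right of each group (n = 3). The first falls from 0.847 to 0.390, the second goes from 0.627 to 0.792, and the third overlaps between the groups.

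GSS (ENSG00000100983, chromosome 20, 34928432 to 34956027, minus strand), glutathione synthetase, had 14.59, 13.91 and 14.72 FPKM in si-NC. It had 17.10, 16.18 and 15.98 in si-STRIP2. All 3 knockdown libraries were above the controls. The log2 fold change was 0.18 (95% interval 0.096 to 0.27, edgeR adjusted p = 0.000565). The overlapping gene MYH7B shares no exonic base with GSS and held 0.633% as many counts.

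GSR (ENSG00000104687, chromosome 8, 30678066 to 30727846, minus strand), glutathione reductase, had 60.48, 59.21 and 56.45 FPKM in si-NC. In si-STRIP2 it had 66.33, 71.59 and 69.57, again above every control. The rise was 1.17-fold (log2 fold change 0.23, 95% interval 0.15 to 0.32, edgeR adjusted p = 1.67e-05). In si-NC cells GSR and SLC7A11 had overlapping FPKM ranges, 56.45 to 60.48 and 56.12 to 64.09. In si-STRIP2 cells GSR had the highest FPKM of the 9 genes.

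The cytosolic cleavage enzymes were both called lower, with more spread between libraries. CHAC1 (ENSG00000128965, chromosome 15, 40952962 to 40956512, plus strand), which is induced in stress responses, had 13.04, 12.48 and 12.74 FPKM in si-NC. It had 12.00, 11.32 and 10.11 in si-STRIP2. The groups did not overlap, but the highest knockdown value came close to the lowest control (log2 fold change -0.20, 95% interval -0.34 to -0.053, edgeR adjusted p = 0.0191). CHAC1 was no longer called without si-NC replicate 1 (edgeR adjusted p = 0.0824) or without si-STRIP2 replicate 3 (0.138). Over its 17 alternatives the adjusted p ranged from 0.0110 to 0.921. The latter came from edgeR's glmTreat, which tests against a 1.2-fold change and also lost the call. Against no change the highest was 0.138.

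CHAC2 (ENSG00000143942, chromosome 2, 53767804 to 53775196, plus strand), a slower enzyme of the same family, had 18.75, 17.92 and 16.49 FPKM in si-NC. It had 13.83, 16.74 and 14.33 in si-STRIP2. Knockdown replicate 2 lay above control replicate 3, so the groups overlapped (log2 fold change -0.25, 95% interval -0.41 to -0.090, edgeR adjusted p = 0.00802). The call was lost without si-NC replicate 1 (edgeR adjusted p = 0.0703) or without si-STRIP2 replicate 1 (0.0767). Over 17 alternatives the adjusted p ranged from 0.00155 to 0.606. The latter came from glmTreat against a 1.2-fold change, which also lost the call. Against no change the highest was 0.0767. CHAC2 lies within ASB3, a gene on the opposite strand that held 116% as many counts. The genes share no exonic base in GENCODE 29, and the strand setting of the counting is not given in the sources used here. The FPKM ratio of CHAC1 to CHAC2 averaged 0.722 ± 0.0443 (SD, n = 3) in controls and 0.750 ± 0.103 after knockdown (exact permutation test, 2-sided, p = 0.8).

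GGT1 (ENSG00000100031, chromosome 22, 24594811 to 24629005, plus strand), the ectoenzyme that starts glutathione breakdown at the cell surface, was near the limit of detection. It had 14, 10 and 11 counts in si-NC and 12 in each si-STRIP2 library, or 0.13 to 0.16 FPKM. No difference was detectable at this depth: the log2 fold change was 0.11 with a 95% interval of -0.60 to 0.82 (edgeR adjusted p = 0.815). An unnamed gene on the same strand, ENSG00000286070, spans GGT1 and held 50.7% as many counts, so the value is uncertain. Of its relatives in the table, GGT7 had 75 to 110 counts per library and GGT5 and GGT6 had at most 3.

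The 9 genes fell into tiers by FPKM in control cells. FPKM divides by the exonic size given for each gene, so an order between genes depends on those sizes. SLC3A2 (70.8), SLC7A11 (59.9) and GSR (58.7) were highest, and the last 2 did not differ beyond their spread. GCLC (18.1) and CHAC2 (17.7) overlapped, followed by GSS (14.4), CHAC1 (12.8), GCLM (11.4) and GGT1 (0.143), each separate from its neighbour. In si-STRIP2 cells the order was GSR (69.2), SLC3A2 (64.2), SLC7A11 (25.0), GSS (16.4), CHAC2 (15.0), GCLC (14.2), GCLM (11.2), CHAC1 (11.1) and GGT1 (0.157). There GSS overlapped CHAC2, CHAC2 overlapped GCLC, and GCLM overlapped CHAC1. GCLC thus stood above GSS in the controls and below it in the knockdown.

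**Figure D3:**
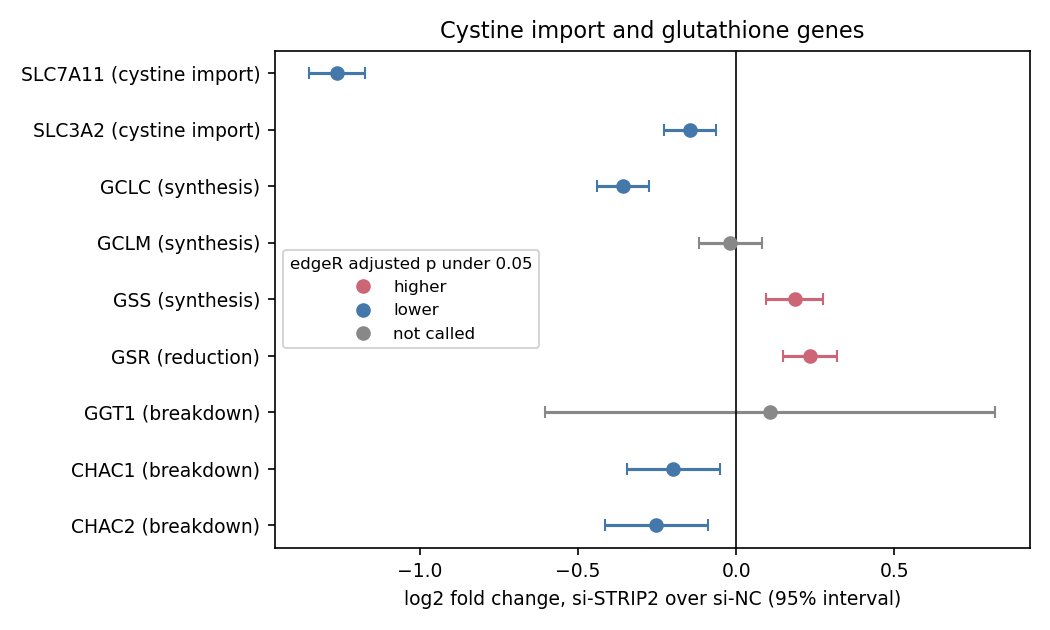
Log2 fold change of the 9 genes, si-STRIP2 over si-NC (horizontal axis), with 95% intervals from the edgeR fit and the role of each gene in brackets. SLC7A11 stands apart at -1.26, the other called genes lie between -0.36 and 0.23, and the interval of GGT1 is the widest.

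The wider pathway was described with 10 lists of 118 other genes, of which 117 were in the table and 92 passed the filter on low counts. In these lists 30 genes were called higher and 32 lower, and 30 were not called, so that 67.4% were called. Over all tested genes 54.8% were called, 27.8% higher and 27.0% lower, and the counts of each list below are set against these shares. The median log2 fold change of the lists was 0.011, beside 0.014 for all tested genes. A change of at least 1.5-fold was called for 3 of the 92 higher and 12 lower, where 14.5% of all tested genes reached it in either direction.

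In methionine and cysteine metabolism, 4 of 10 tested genes were higher and 5 lower (27.8% and 27.0% over all tested genes), with a median of -0.099. MAT2A and AHCY, early enzymes of the route from methionine towards cysteine, rose together. MAT2A went from 74.4 ± 8.23 to 113.5 ± 4.73 FPKM (log2 fold change 0.61, edgeR adjusted p = 6.43e-12). GGCX on the opposite strand held 6.84% as many counts and shares 558 exonic bases with MAT2A in GENCODE 29. AHCY went from 56.9 ± 2.21 to 86.8 ± 1.27 FPKM (0.61, edgeR adjusted p = 1.04e-14). CTH, the enzyme that releases cysteine, was lower (-0.22, edgeR adjusted p = 0.0173), and is named after its value was seen. GOT1, a cytosolic aminotransferase that also acts on cysteine sulfinate, fell from 136.8 ± 5.40 to 76.1 ± 1.51 FPKM (-0.85, edgeR adjusted p = 3.10e-18).

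Of the 7 tested genes of glutamate supply, 4 were higher and 2 lower, beside the same 27.8% and 27.0%, with a median of 0.12. SLC38A1, a glutamine transporter, had the smallest adjusted p, at 88.8 ± 3.51 FPKM in si-NC and 61.02 ± 0.582 in si-STRIP2 (log2 fold change -0.54, edgeR adjusted p = 5.99e-13). In the gamma-glutamyl cycle and peptide cleavage list, 1 of 6 was higher and 3 lower (median -0.19). CNDP2, a cytosolic dipeptidase that can release cysteine from cysteinylglycine, fell from 8.65 ± 0.385 to 6.86 ± 0.360 FPKM (-0.34, edgeR adjusted p = 1.73e-07).

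Other genes of the lists use glutathione. Of 11 tested peroxidases, glutaredoxins and related enzymes, 5 were higher and 1 lower (27.8% and 27.0% over all tested genes), with a median of 0.10. ESD, S-formylglutathione hydrolase, rose from 29.2 ± 2.11 to 43.0 ± 0.257 FPKM (log2 fold change 0.55, edgeR adjusted p = 1.63e-12). Of 16 tested glutathione transferases, 5 were higher, 1 lower and 10 not called, so that 37.5% were called against 54.8% over all tested genes. Their median was 0.15. That lower gene was GSTA4, at 1.18 ± 0.229 FPKM in si-NC and 0.770 ± 0.211 in si-STRIP2. Its log2 fold change was -0.60 (edgeR adjusted p = 0.0272), its difference was -0.30 on the log2(FPKM + 1) scale, and its call was lost under 7 of 17 alternatives (adjusted p 0.00946 to 0.15 over all of them). Near-identical copies such as GSTT2 and GSTT2B may share reads and are uncertain.

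NADPH, which GSR needs, is supplied by several enzymes, and 4 of 11 tested genes were higher and 3 lower, again beside 27.8% and 27.0%, with a median of 0.00040. IDH1, cytosolic isocitrate dehydrogenase, fell from 52.6 ± 2.33 to 30.0 ± 0.481 FPKM (log2 fold change -0.82, edgeR adjusted p = 1.03e-17). MTHFD1, a folate enzyme, rose from 8.64 ± 0.381 to 13.3 ± 0.237 FPKM (0.62, edgeR adjusted p = 8.20e-15). ZBTB25 on the opposite strand held 18.2% as many counts and shares 178 exonic bases with MTHFD1 in GENCODE 29. ALDH1L2, a mitochondrial folate enzyme, had a log2 fold change of -0.89 (edgeR adjusted p = 2.27e-07), or -0.41 on the log2(FPKM + 1) scale. That value is uncertain, since other genes overlap ALDH1L2 on the opposite strand. NOPCHAP1 shares 145 exonic bases with it in GENCODE 29 and held 299% as many counts. WASHC4 shares no exonic base with it and held 1010% as many. Among 9 glutathione transport genes, 3 were higher and 2 lower (median -0.0074). ABCC2, an exporter of glutathione and its conjugates, fell from 27.8 ± 3.01 to 15.4 ± 0.862 FPKM (-0.85, edgeR adjusted p = 1.81e-15).

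**Figure D4:**
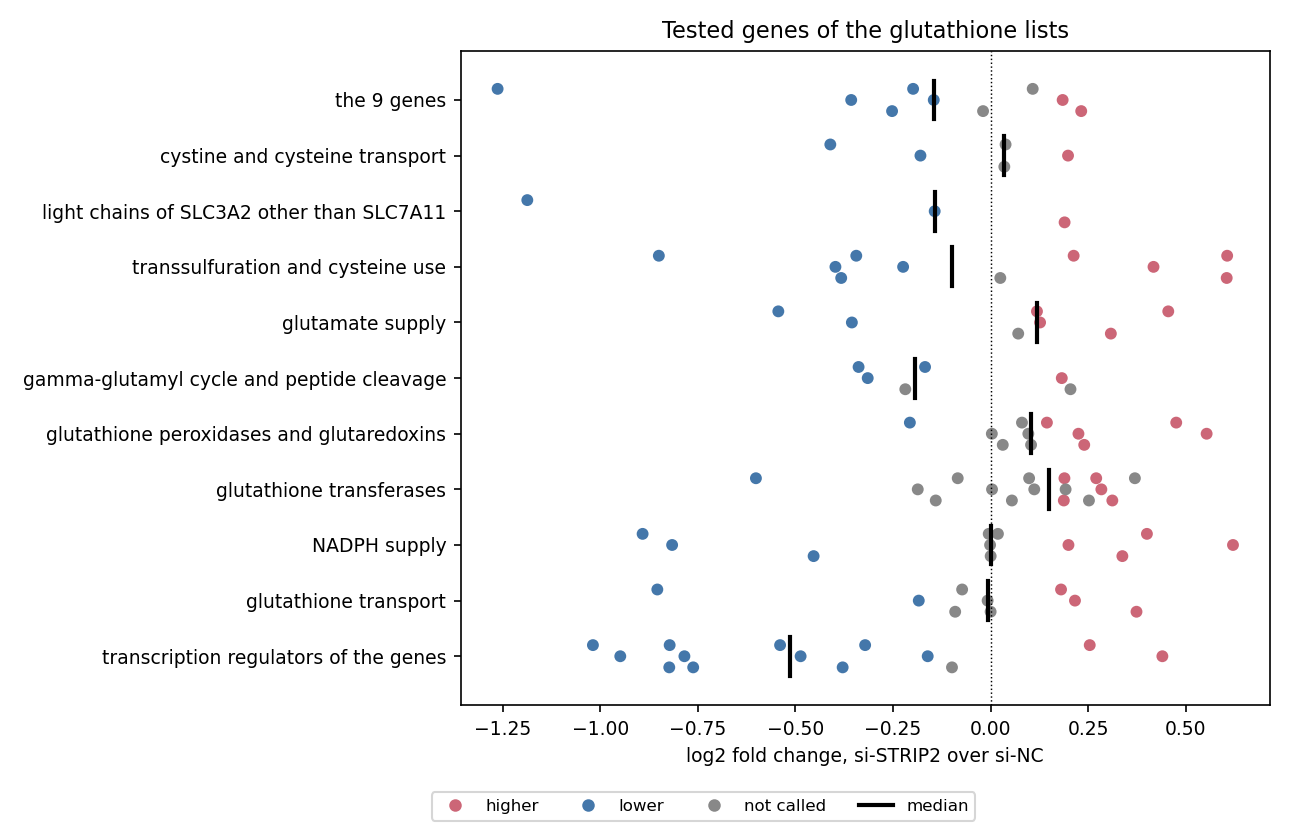
Log2 fold change, si-STRIP2 over si-NC (horizontal axis), of each tested gene (points, coloured by edgeR call) in the 9-gene set and the 10 pathway lists, with a black bar at each median. The medians of 9 lists lie between -0.19 and 0.15, and that of the transcription regulators is -0.51.

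Of 14 genes that regulate SLC7A11, CHAC1 or the GCL genes, 2 were higher and 11 lower, with a median of -0.51. Over all tested genes 27.8% were higher and 27.0% lower, with a median of 0.014. The list was chosen with earlier results known, so its direction is no independent evidence. The genes that fell by at least 1.5-fold were MAFF, ATF3, NFE2L1, CEBPG, DDIT3 and TRIB3. NFE2L1, a relative of NRF2, fell from 72.4 ± 0.603 to 41.04 ± 1.92 FPKM (log2 fold change -0.82, edgeR adjusted p = 9.28e-18). MAFF, a small partner of NRF2, fell from 3.56 ± 0.193 to 1.75 ± 0.189 FPKM (-1.02, edgeR adjusted p = 1.30e-11). PLA2G6 on the opposite strand held 62.9% as many counts and shares no exonic base with MAFF in GENCODE 29. ATF3 (-0.95), CEBPG (-0.82) and the ATF4 inhibitor TRIB3 (-0.76) had edgeR adjusted p-values of 9.00e-17, 1.29e-17 and 3.80e-17. DDIT3, which encodes CHOP, was lower at -0.78 (edgeR adjusted p = 8.14e-15). DDIT3 is uncertain, as MARS1 overlaps it on the opposite strand with 555% as many counts. MARS1 shares 355 exonic bases with DDIT3 in GENCODE 29.

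ATF4, NFE2L2 and KEAP1 were named after their values were seen. ATF4 had 195.13, 192.36 and 192.52 FPKM in si-NC and 238.07, 227.61 and 227.70 in si-STRIP2, so its transcript was higher (log2 fold change 0.25, edgeR adjusted p = 2.60e-06). NFE2L2, the gene of NRF2, had 18.38, 19.52 and 17.65 in si-NC and 12.77, 12.99 and 12.54 in si-STRIP2 (-0.54, edgeR adjusted p = 2.99e-13). KEAP1, which targets NRF2 for degradation, was higher (0.44, edgeR adjusted p = 2.75e-08). Both factors are controlled largely at the protein level, which was not measured.

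The genes with patterns most like that of SLC7A11 were sought among 6658 tested genes with a symbol and a mean of at least 5 FPKM. Likeness was the Euclidean distance, over the 6 libraries, between log2 CPM (counts scaled to library size) centred on each gene's control mean. The nearest 5 were GFPT1 (distance 0.11), SMIM14 (0.13), LINC02967 (0.13), PTPDC1 (0.14) and PPP1R14C (0.16). GFPT1, the first enzyme of hexosamine synthesis, went from 56.5 ± 1.94 to 22.95 ± 0.304 FPKM (SD, n = 3), a level close to that of SLC7A11. The log2 fold changes of the 5 ranged from -1.30 (GFPT1) to -1.20 (PTPDC1). The choice by distance fixed these values near that of SLC7A11, so they are no separate result.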

How the data were processed

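RNA of 3 si-NC and 3 si-STRIP2 HCT116 libraries was selected for poly(A) and made into directional libraries, per the labels' protocols. Per the submitters' processing notes, bcl2fastq 2.20.0.422, FastQC 0.10.1, cutadapt 1.9.1, HISAT2 2.2.1, HTSeq 0.6.1 and build GRCh38.p13 were used; the annotation release and strand setting are not given in the sources used here. The authors deposited raw counts per gene and FPKM values, which differed by at most 0.005 from values recomputed from count, exonic size and total.

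Counts were tested across all genes with edgeR 4.0.16 in R 4.3.3 (filterByExpr with minimum count 10, TMM, quasi-likelihood F test, 2-sided, group as only term). P-values were adjusted by Benjamini-Hochberg over 15687 genes, and a gene was called at an adjusted p under 0.05. Standard errors are the absolute log2 fold change over the square root of F, and 95% intervals use the fit's degrees of freedom. Ratios of FPKM were compared by exact permutation. DESeq2 1.42.0 and limma 3.58.1 (voom, or log2(FPKM + 1) and log2(FPKM + 0.1) with at least 1 FPKM in 3 libraries) were alternatives. Scripts were tested on simulated data.

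The members and lists were chosen with earlier results of these data known. Named were the 9 genes, STRIP2, and pathway genes called with at least a 1.5-fold change whose higher group averaged 1 FPKM or more. Where a list had none, the called gene with the smallest adjusted p was named. The rule also took in overlapping genes and the 5 nearest to SLC7A11. GSTT1 was not analysed here. Libraries of a group differed beyond sampling noise. Chi-square per degree of freedom was 4.91 to 16.6 between si-NC libraries and 2.13 to 2.26 between si-STRIP2 libraries.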

Additional observations from a re-analysis of the deposited data

How the results depend on the processing

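Results were recomputed under 17 alternatives: 3 other scalings, 2 other filters, 5 other tests, a replicate block and 6 fits without 1 library each. SLC7A11 stayed lower and called under all 17 (log2 fold change -1.30 to -1.22), as did GCLC (-0.38 to -0.33). The same 7 genes were called under 13 of the 17; the exceptions were glmTreat and the fits without si-NC replicate 1, si-STRIP2 replicate 1 or si-STRIP2 replicate 3, the last of which lost CHAC1. Tested against a 1.2-fold change with edgeR's glmTreat, a stricter question, 2 of the 9 genes were lower (SLC7A11 and GCLC) and 0 higher (0 also at an unadjusted p under 0.05). DESeq2 and limma, run only against no change, called 2 higher and 5 lower, as edgeR did. The glmTreat test called 8 pathway genes higher and 16 lower, and 1780 higher and 1943 lower over all genes. Leaving out 1 library gave 3 to 5 of the 9 genes lower, the lowest without si-NC replicate 1, where CHAC1 and CHAC2 lost their calls. Leaving out 1 library gave GCLM log2 fold changes of -0.056 to 0.013, the latter without si-STRIP2 replicate 1 (edgeR adjusted p = 0.862, range over the alternatives 0.428 to 1), and the log2 difference of the CHAC1 to CHAC2 ratio lay between -0.061 and 0.12. For all of these the cause was not tested. GGT1, at 10 to 14 counts, was not tested with the filter of 1 FPKM.

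The libraries share replicate numbers, but same-numbered libraries did not deviate together (correlations of deviations from group means -0.086, -0.013 and -0.072), and 0 of 6 libraries correlated best with their own number. With the replicate block 4196 genes were higher and 4097 lower, against 4359 and 4240, and of the 9 genes 5 were lower and 2 higher, as without it. SLC7A11 had a log2 fold change of -1.26 with the block.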

Other observations

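Of the 117 pathway genes in the table, 25 did not pass the filter on low counts. SLC7A13, GSTM1, GSTM3 and GSTM5 had 0 counts in all 6 libraries. For a single library, a count of 0 allows an expected count of up to 3 by counting error alone. A count of 0 in all 6 libraries sets a tighter bound per library. NNT, the mitochondrial transhydrogenase that makes NADPH, had 1 count in total. CBS, the first enzyme of transsulfuration, also had 1 count in total, which is uncertain because reference assemblies hold a near-identical copy of it. GPX2 and GPX3 had 6 and 24 counts in total. Of the surface peptidases that act after GGT1, ANPEP had 4 counts in total and DPEP2 and DPEP3 had 4 and 1, while DPEP1 passed the filter with 38 to 71 counts per library and was not called (log2 fold change -0.22, edgeR adjusted p = 0.331). GSTA2 was the untested gene with the most counts, 57 in total and 6 to 15 per library.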
